A study of Drosophila melanogaster with 20 samples.

Results

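The mitochondrial genome of *Drosophila melanogaster* was examined in neuRNA-seq libraries of Kc167 cells, through every gene whose symbol begins with mt:. There were 38 such genes among the 17659 in the table. They comprise 13 protein genes, 2 rRNA genes, 22 tRNA genes and the control region, which is listed as *mt:ori*. The symbol alone decided which genes belong, but this set of genes was chosen with earlier results of these data known. Kc167 is a female line derived from embryos, labelled as of the dorsal closure stage. The series has 20 samples, of which 4 libraries were used, 2 from cells given dsRNA against GAF (replicates 2 and 3) and 2 from cells given dsRNA against Mi-2 (replicates 1 and 2). GAF, the GAGA factor encoded by *Trl*, is a DNA-binding protein of nuclear chromatin, and Mi-2 is an ATP-dependent nucleosome remodeler. In all 4 libraries living cells were fed the uridine analog 5-ethynyl uridine (EU, 0.2 mM) during 1 h, the RNA that carried it was captured, and reads of 50 bp were counted on the sense strand over whole gene bodies. Mock-treated cells and cells without EU were not analysed here, so it is not known which of the knockdowns departs from untreated cells, and labelled RNA and RNA carried over in the capture cannot be told apart. Nothing in the labels says that the replicates came from separate cultures, so p-values measure the spread between these libraries, which may be technical.

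Mitochondria keep a small circular genome whose protein genes encode core subunits of the respiratory chain and of ATP synthase, and whose rRNAs and tRNAs serve the mitochondrial ribosome. A dedicated RNA polymerase, encoded in the nucleus and related to those of bacteriophages, transcribes both strands into long RNAs that span several genes. tRNAs lie between many of the other genes, and their excision releases the mRNAs and rRNAs, whose amounts are then set further by RNA-binding proteins and by decay.

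Libraries held between 3966515 and 12563919 counts on genes. Replicates of a knockdown were further apart than counting noise (chi-square over degrees of freedom 9.81 for GAF and 9.88 for Mi-2) and were kept separate. Of the targeted genes, *Mi-2* stood at 300 and 311 CPM (counts relative to the scaled library size) in the Mi-2 knockdown and at 431 and 436 in the GAF knockdown (log2 fold change 0.50, standard error 0.0931, adjusted p = 0.0109, edgeR). *Trl* stood at 6.97 and 10.9 CPM in the GAF knockdown and at 13.4 and 12.3 in the Mi-2 knockdown, a difference that did not pass the test (adjusted p = 0.566, edgeR). Other genes of the same strand cover 80.5% of the length of *Trl* and 72.0% of that of *Mi-2*. Kc167 cells resemble hemocytes, the blood cells of flies. All 8 hemocyte markers had counts, but *NimC1* had at most 6 in any library and *eater* had 0 and 6 in the Mi-2 knockdown. The 8 summed to 4508 to 4758 CPM in the GAF knockdown and 3905 to 4199 in the Mi-2 knockdown, most of it from *srp* and *Hml*. *Pxn*, *Col4a1* and *vkg* passed an adjusted p of 0.1 as higher in the GAF knockdown (log2 fold changes 0.95, 0.95 and 1.64, edgeR), while *srp*, *Hml*, *Ppn* and *eater* did not pass. The 3 neuron markers (*elav*, *nSyb*, *brp*) also had counts and summed to 146 to 182 and 328 to 375 CPM, most of it from *brp*, a synaptic protein gene. The 3 muscle markers summed to at most 15.2 CPM, the fat body markers to at most 9.36 with *Fbp1* at 0, the germ line markers to at most 4.88 with *nos* not analysed, and the male-specific *roX* RNAs to at most 3.03. The part of the hemocyte and neuron marker differences in what follows was not tested.

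Mitochondrial genes took a larger share of the counts in both Mi-2 knockdown libraries than in either GAF knockdown library. The share was 0.484% in GAF knockdown replicate 2 (29606 counts, Wilson 95% interval 0.479 to 0.490) and 0.698% in GAF knockdown replicate 3 (87758 counts, 0.694 to 0.703). It was 1.66% in Mi-2 knockdown replicate 1 (65786 counts, 1.65 to 1.67) and 1.14% in Mi-2 knockdown replicate 2 (65049 counts, 1.14 to 1.15). The groups did not overlap, and the libraries of each knockdown lay apart by far more than counting error, which is all that these intervals cover since reads carry no molecular identifiers. The mean share of the GAF knockdown was 0.591% ± 0.151 and that of the Mi-2 knockdown 1.40% ± 0.364 (SD, n = 2 each), a ratio of 2.37. A two-sided exact permutation test gave p = 0.333, the smallest value that 2 libraries against 2 allow. When single libraries were left out, the log2 ratio of GAF over Mi-2 knockdown went from -1.53 to -0.95, against -1.24 with all. In bulk libraries fewer cells of a type, fewer mitochondria, fewer genome copies and less RNA per copy cannot be told apart.

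**Figure D1:**
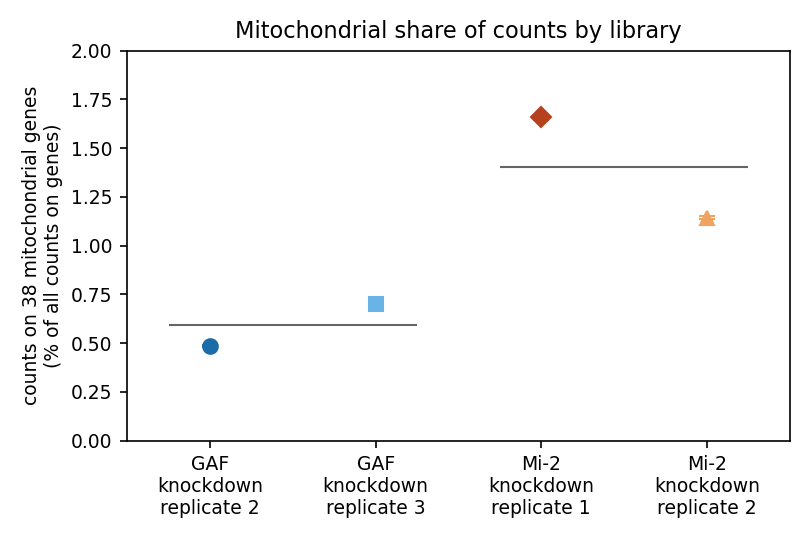
Share of all counts on genes that fell on the 38 mitochondrial genes (%, vertical axis) in each of the 4 libraries; each point is a library, horizontal lines are the group means (0.591% and 1.40%), and bars, mostly hidden by the points, are Wilson 95% intervals. Both Mi-2 knockdown libraries (1.66% and 1.14%) lie above both GAF knockdown libraries (0.484% and 0.698%).

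Other RNA classes did not share 1 pattern across the same libraries. Nuclear rRNA genes and pseudogenes (117 rows) took 0.527% and 0.352% of all counts in the GAF knockdown (replicates 2 and 3), and 0.560% and 0.649% in the Mi-2 knockdown (replicates 1 and 2). The 289 genes of snRNAs and snoRNAs took 0.0538% and 0.0509% against 0.0951% and 0.0721%, and the 87 genes of cytosolic ribosomal proteins took 1.63% and 1.55% against 1.48% and 1.34%. The first and second of these classes were thus higher in the Mi-2 knockdown and the last was lower, none with overlapping groups. Their part in the mitochondrial difference was not tested. With nuclear rRNA taken out of the denominator the log2 ratio of the mitochondrial share was -1.25. Nuclear rRNA was at most 0.649% of all counts, so taking it out could hardly move that ratio, and the value decides nothing about its part.

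Of the 38 genes, 24 had a count in any library and 14, all of them tRNA genes, were at 0 in every library. The filter on low counts left 11 for the test, 9 protein genes and both rRNA genes. By edgeR's quasi-likelihood test 7 of the 11 passed an adjusted p of 0.1 as lower in the GAF knockdown, against 6.06% of all 7826 genes tested. None of the members passed as higher in the GAF knockdown by edgeR or DESeq2, against 3.40% of all genes by edgeR, and since all 11 log2 fold changes were negative 0 did so at an unadjusted p under 0.05. The 7 genes called were 2.22 to 2.60 times as high in the Mi-2 knockdown as in the GAF knockdown, with adjusted p-values from 0.000455 to 0.0211 (edgeR). In 9 of the 11 both Mi-2 knockdown libraries lay above both GAF knockdown libraries, which held for 26.0% of all genes tested. The median log2 fold change of the 11 was -1.29 (range -2.01 to -1.15), beside -0.0024 over all genes tested with quartiles of -0.31 and 0.23. Where counts were scaled to the mitochondrial total the median of the 11 turned to 0.02, largely by construction. Over all genes tested, 7.39% had a log2 fold change at or under -1.

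**Figure D2:**
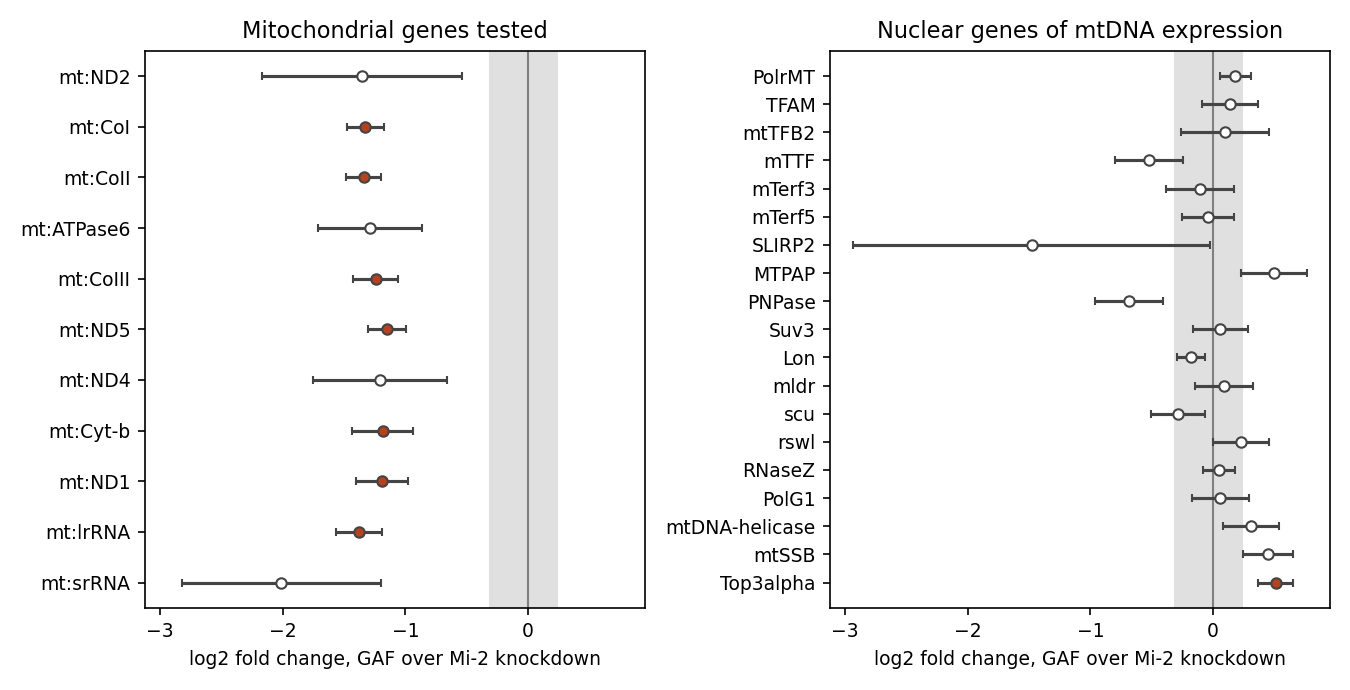
Log2 fold change of the GAF over the Mi-2 knockdown (horizontal axis) for the 11 mitochondrial genes tested (left) and the 19 nuclear genes of mtDNA expression tested (right); bars are standard errors, filled points passed an adjusted p of 0.1 in edgeR, and the grey band spans the quartiles of all genes tested (-0.31 to 0.23). The mitochondrial genes lie between -2.01 and -1.15, and the nuclear genes lie between -1.48 and 0.51 with a median of 0.06.

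The 3 subunit genes of cytochrome c oxidase (complex IV), the enzyme that passes electrons to oxygen, held most of the mitochondrial counts. Values below are CPM after TMM scaling, in the order GAF knockdown replicates 2 and 3, then Mi-2 knockdown replicates 1 and 2. *mt:CoI* (plus strand of the mitochondrial sequence of dm6, 1474 to 3009), the catalytic subunit, had 1921, 2656, 6587 and 4912 CPM. *mt:CoII* (3083 to 3767), the subunit that takes up electrons from cytochrome c, had 244, 270, 757 and 549 CPM. *mt:CoIII* (4736 to 5524), the remaining core subunit, had 1557, 2389, 5386 and 3968 CPM. In each of the 3 genes both Mi-2 knockdown libraries were high, with replicate 1 above replicate 2, both GAF knockdown libraries were low, and the groups did not overlap. The means were 2289 ± 520 against 5750 ± 1185 CPM for *mt:CoI*, 257 ± 18.4 against 653 ± 147 for *mt:CoII* and 1973 ± 589 against 4677 ± 1002 for *mt:CoIII* (GAF against Mi-2 knockdown, SD, n = 2 each). The log2 fold changes of GAF over Mi-2 knockdown were -1.33 (standard error 0.153, adjusted p = 0.000846) for *mt:CoI*, -1.34 (0.141, 0.000455) for *mt:CoII* and -1.24 (0.180, 0.00328) for *mt:CoIII* by edgeR. With single libraries left out these log2 fold changes ranged from -1.59 to -1.10, from -1.54 to -1.09 and from -1.60 to -0.97, in that order. Each such fit leaves 1 library in a knockdown, so its calls are not read as support.

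*mt:Cyt-b* (plus strand, 10499 to 11635) encodes cytochrome b, the subunit of complex III that oxidises ubiquinol. It had 171, 288, 652 and 401 CPM in the same order, with the Mi-2 knockdown libraries above the GAF knockdown libraries but a gap between the groups that was smaller than the gap within the Mi-2 knockdown. Its log2 fold change was -1.19 (standard error 0.248, adjusted p = 0.0211, edgeR). This call was the least stable of the 7, since DESeq2 gave an adjusted p of 0.138 and edgeR without GAF knockdown replicate 2 gave a log2 fold change of -0.87 with an adjusted p of 0.147.

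Complex I, the NADH dehydrogenase, has 7 subunits encoded in this genome, and 4 of their genes were tested. *mt:ND1* (minus strand, 11721 to 12659), which encodes a membrane subunit next to the ubiquinone site, had 567, 849, 1987 and 1251 CPM. *mt:ND5* (minus strand, 6409 to 8125), which encodes the largest membrane subunit and an antiporter-like part of the proton pump, had 148, 194, 428 and 334 CPM. Groups did not overlap in either gene, but in *mt:ND1* the gap between the groups was smaller than the gap within the Mi-2 knockdown. The log2 fold changes were -1.19 for *mt:ND1* (standard error 0.211, adjusted p = 0.00926, edgeR) and -1.15 for *mt:ND5* (standard error 0.156, adjusted p = 0.00249, edgeR). With single libraries left out they ranged from -1.52 to -0.81 for *mt:ND1* and from -1.37 to -0.96 for *mt:ND5*.

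*mt:ND4* (minus strand, 8207 to 9545), another antiporter-like subunit of complex I, gave a different picture. Its values were 30.2, 48.9, 156 and 31.4 CPM, so that Mi-2 knockdown replicate 1 stood alone and replicate 2 lay within the range of the GAF knockdown. The log2 fold change of -1.21 (standard error 0.545, adjusted p = 0.250, edgeR) did not pass the test, and without Mi-2 knockdown replicate 1 it was 0.35. *mt:ND2* (plus strand, 240 to 1263), the last of the complex I genes tested, had only 11, 33, 20 and 35 counts, or 1.78, 2.59, 5.05 and 6.32 CPM. The groups of *mt:ND2* did not overlap, but its log2 fold change of -1.36 had a standard error of 0.816 and an adjusted p of 0.409 (edgeR).

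*mt:ATPase6* (plus strand, 4062 to 4736), which encodes the subunit of ATP synthase that forms the proton path, split the Mi-2 knockdown in the same way as *mt:ND4*. It had 80.5, 113, 370 and 109 CPM, with Mi-2 knockdown replicate 2 below GAF knockdown replicate 3. Its log2 fold change was -1.29 (standard error 0.420, adjusted p = 0.112, edgeR), and it ranged from -1.91 to -0.16 with single libraries left out. Between the Mi-2 knockdown libraries the log2 change of replicate 2 over replicate 1 was -1.76 for *mt:ATPase6* and -2.31 for *mt:ND4*, while the 7 called genes lay between -0.70 and -0.36. The median absolute gap between those libraries over all genes tested was 0.258. Without Mi-2 knockdown replicate 2 the log2 fold changes were -1.91 for *mt:ATPase6* and -1.94 for *mt:ND4*. That fit leaves 1 Mi-2 knockdown library and so holds no spread within that knockdown.

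The 2 rRNA genes lie beside each other on the minus strand, *mt:lrRNA* from 12735 to 14058 and *mt:srRNA* from 14131 to 14916, and make the RNAs of the large and small ribosomal subunits. *mt:lrRNA* had 79.6, 82.9, 257 and 168 CPM, close together in the GAF knockdown and below both Mi-2 knockdown libraries. In CPM the gap between the groups was slightly smaller than the gap within the Mi-2 knockdown. Its log2 fold change was -1.38 (standard error 0.189, adjusted p = 0.00264, edgeR), the largest drop among the 7 calls. *mt:srRNA* had 8, 26, 26 and 40 counts, or 1.30, 2.04, 6.56 and 7.22 CPM, and its groups did not overlap either. Its log2 fold change of -2.01 (standard error 0.809, adjusted p = 0.196, edgeR) did not pass. Whether the library kit removed mitochondrial rRNA is not given in the sources used here, so the rRNA levels are not set against the mRNA levels as amounts in the cell.

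The other 4 protein genes stayed under the filter and have no test. *mt:ATPase8* (3907 to 4068), a small subunit of ATP synthase, had 2, 25, 6 and 3 counts in the order used above. In CPM these were 0.324, 1.97, 1.51 and 0.542. GAF knockdown replicate 3, the deepest library, was thus the highest in counts and also in CPM. *mt:ND3* (5608 to 5961) had 6, 6, 9 and 2 counts, *mt:ND4L* (9545 to 9835) had 0, 9, 6 and 3, and *mt:ND6* (9971 to 10495) had 0, 2, 5 and 1. These are 3 further membrane subunits of complex I, and only in *mt:ND6* did the groups not overlap in CPM, on at most 5 counts. The 0 of *mt:ND4L* and *mt:ND6* in GAF knockdown replicate 2 leaves room for up to 3 counts, or 0.491 CPM before TMM scaling. The control region *mt:ori* (14917 to 19524), which holds the origins of replication and is not known as a gene for a product, had 1 count in all 4 libraries together.

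tRNA genes gave almost no counts. The 22 genes summed to 0, 23, 10 and 24 counts in the 4 libraries, 57 in all, and 8 of them had any. *mt:tRNA:Trp-TCA* was the highest with 0, 14, 6 and 10 counts, and none reached 10 counts in every library. Their annotated lengths run from 62 to 72 bp against reads of 50 bp. A read that also touches a neighbour on the same strand is by default assigned to neither gene, and the counting notes name no change to that default, so these values describe reads that touch a tRNA gene alone and not the amount of tRNA.

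Levels were compared between genes per length, as CPM per kb of the gene that is not shared with another on its strand. *mt:CoIII* was the highest with 1975, 3032, 6835 and 5036 CPM per kb, followed by *mt:CoI* with 1250, 1729, 4289 and 3198, and by *mt:ND1* with 604, 904, 2116 and 1332. Below these came *mt:CoII* (356, 394, 1105 and 801 CPM per kb) and *mt:Cyt-b* (150, 253, 573 and 352). This order of the 5 highest genes was the same in each of the 4 libraries. *mt:CoIII* alone made up 44.3% ± 1.34 (SD, n = 4) of the summed level per length of the 13 protein genes.

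*mt:ATPase6* came next by its mean with 121, 170, 555 and 164 CPM per kb, but it stood above *mt:ND5* (86.3, 113, 249 and 194) in only 3 of the 4 libraries, and the order turned in Mi-2 knockdown replicate 2. *mt:ND5* was above *mt:lrRNA*, and *mt:lrRNA* above *mt:ND4*, in every library. The 6 lowest, *mt:ATPase8*, *mt:srRNA*, *mt:ND2*, *mt:ND3*, *mt:ND4L* and *mt:ND6*, did not exceed 12.7 CPM per kb in any library, and neighbours among them kept their order in 2 or 3 of the 4 libraries, so that order is not set beyond the spread. The 5 protein genes at the low end (*mt:ND2*, *mt:ND3*, *mt:ND6*, *mt:ND4L* and *mt:ATPase8*) held 184 of the 248199 mitochondrial counts, or 0.0741%, on 21.1% of the protein gene length.

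**Figure D3:**
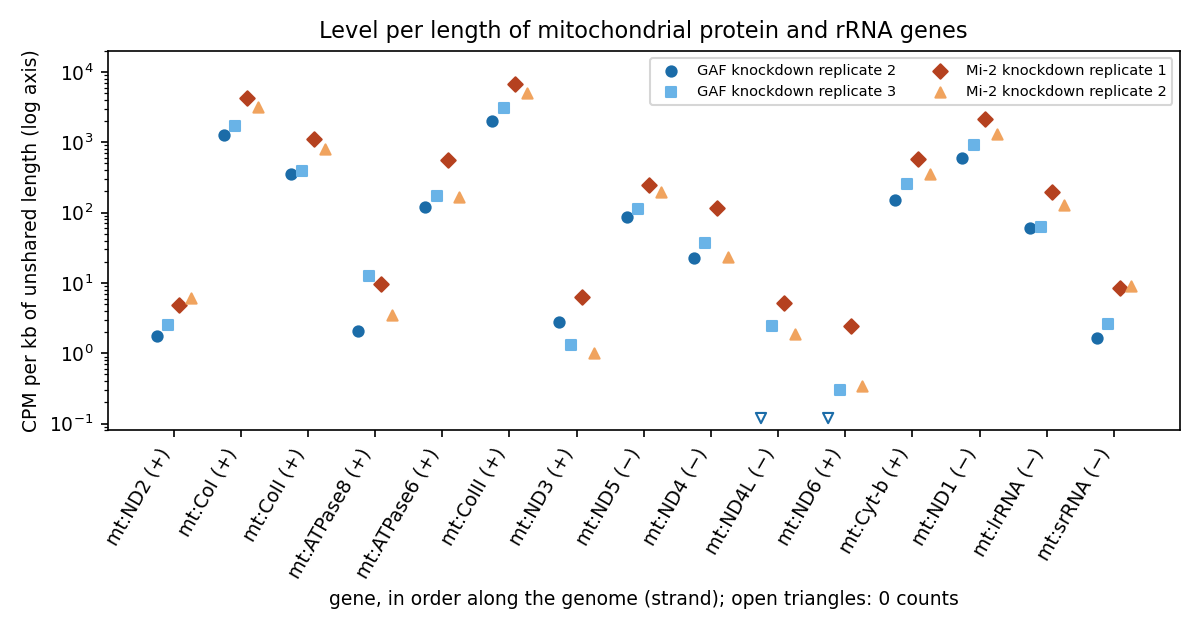
Level of the 13 protein genes and 2 rRNA genes in CPM per kb of unshared length (vertical axis, log scale), placed in their order along the genome with the strand in brackets; each symbol is a library and open triangles mark 0 counts. Levels run from at most 12.7 CPM per kb for the 6 lowest genes to between 1975 and 6835 for *mt:CoIII*, and neighbours such as *mt:ND2* and *mt:CoI* differ far more than the libraries do.

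Some genes that follow each other on a strand differed far more than libraries did. *mt:CoI* lies 210 bp downstream of *mt:ND2* with tRNA genes in between, and its level per length was 718, 682, 870 and 518 times that of *mt:ND2*. These ratios rest on 11, 33, 20 and 35 counts of *mt:ND2*. *mt:Cyt-b* starts 3 bp after *mt:ND6* and was 845, 239 and 1025 times as high in the 3 libraries with an *mt:ND6* count, a ratio that rests on at most 5 counts of *mt:ND6*. *mt:ATPase8* and *mt:ATPase6* overlap by 7 bases, yet *mt:ATPase6* was 57.6, 13.4, 56.8 and 46.9 times as high per length of what they do not share. Those ratios rest on only 2, 25, 6 and 3 counts of *mt:ATPase8*, on 155 bp not shared. Whether such steps, and the order per length above, come from RNA amounts or from capture and counting was not tested.

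Smaller steps were steadier. *mt:CoII* stood at 0.285, 0.228, 0.258 and 0.251 of the level of *mt:CoI*, its upstream neighbour. On the minus strand *mt:lrRNA* stood at 0.0996, 0.0692, 0.0916 and 0.0951 of *mt:ND1*. By contrast *mt:CoIII*, which shares 1 base with *mt:ATPase6*, was 16.4, 17.9, 12.3 and 30.7 times as high as it, and *mt:ND4* was 0.261, 0.324, 0.467 and 0.121 of *mt:ND5*, with the Mi-2 knockdown libraries at opposite extremes of both ratios and the GAF knockdown libraries between them.

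Relative to the mitochondrial total, the genes with the most counts held shares that moved little between the 4 libraries. *mt:CoI* held between 38.5% and 41.8% of the mitochondrial counts, *mt:CoIII* held 32.4%, 34.6%, 32.4% and 33.8%, and *mt:ND1* held 11.8%, 12.3%, 12.0% and 10.7%. Together these 3 genes held 84.2% to 86.3%. With counts scaled to the mitochondrial total, the log2 fold changes of the 7 called genes lay between -0.06 and 0.12. Values near 0 follow largely from that scaling, since *mt:CoI*, *mt:CoIII* and *mt:ND1* make up most of the total. The lowest adjusted p of any of the 11 genes under it was 0.484 (edgeR). That p does not show that the make-up was equal, since the libraries of a knockdown differed in make-up beyond counting noise (chi-square over degrees of freedom 17.2 with 12 genes for GAF and 74.0 with 11 genes for Mi-2).

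For *mt:ATPase6* and *mt:ND4* the Mi-2 knockdown libraries departed in opposite directions. *mt:ATPase6* held 1.68% and 1.64% of the mitochondrial counts in the GAF knockdown, 2.23% in Mi-2 knockdown replicate 1 (Wilson 95% interval 2.12 to 2.34) and 0.932% in replicate 2 (0.861 to 1.01). *mt:ND4* held 0.628% and 0.709% in the GAF knockdown, 0.938% in Mi-2 knockdown replicate 1 (0.867 to 1.01) and 0.267% in replicate 2 (0.231 to 0.310). In both genes the intervals of the Mi-2 knockdown libraries met neither each other nor those of the GAF knockdown, so these gaps are beyond counting error, but they lie within the Mi-2 knockdown and not between the knockdowns. By complex, the genes of complex IV held 77.5%, 77.0%, 76.7% and 80.3% of the mitochondrial counts, those of complex I 15.6%, 15.9%, 15.5% and 13.8%, complex III 3.56%, 4.17%, 3.93% and 3.41%, and ATP synthase 1.68%, 1.67%, 2.24% and 0.936%.

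**Figure D4:**
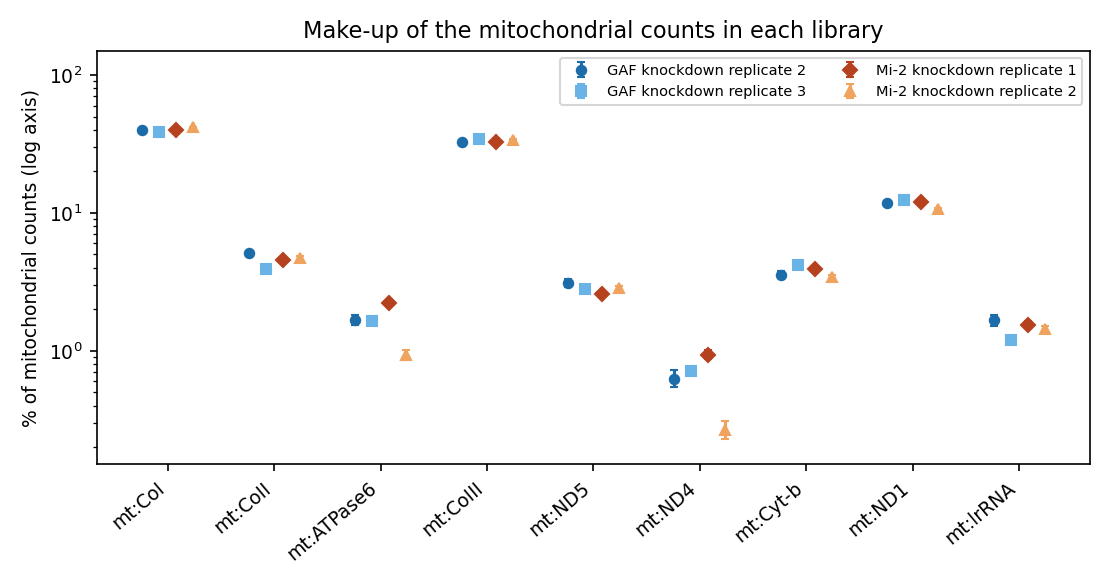
Share of the mitochondrial counts held by each of the 9 genes with the most counts (%, vertical axis, log scale), in genome order, with 1 symbol per library and Wilson 95% intervals as bars. The symbols spread most for *mt:ATPase6* (0.932% to 2.23%) and *mt:ND4* (0.267% to 0.938%), where Mi-2 knockdown replicate 1 is the highest and replicate 2 the lowest.

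Both strands gave counts. Of the members 24 lie on the plus strand, 9 of them protein genes, and 14 on the minus strand, among them *mt:ND1*, *mt:ND4*, *mt:ND4L*, *mt:ND5* and both rRNA genes. Plus-strand genes held 82.8% and 82.9% of the mitochondrial counts in the GAF knockdown and 82.9% and 84.7% in the Mi-2 knockdown. The mean was 82.9% ± 0.104 against 83.8% ± 1.28 (SD, n = 2 each), a difference of -0.96 percentage points with p = 0.667 in a two-sided exact permutation test. Without Mi-2 knockdown replicate 2 the difference was -0.05 points, so it rested on that library. With the rRNA genes left out, the share was 84.21% and 83.98% in the GAF knockdown and 84.25% and 86.01% in the Mi-2 knockdown. The groups no longer overlapped, but GAF knockdown replicate 2 and Mi-2 knockdown replicate 1 were nearly equal. Their Wilson 95% intervals overlapped (83.8 to 84.6 and 84.0 to 84.5), and only Mi-2 knockdown replicate 2 stood clear of the GAF knockdown. The difference was -1.04 points with p = 0.333 in the same exact test, the smallest it allows. The protein genes alone also gave -1.04 points and p = 0.333 (exact).

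Nuclear genes that copy, transcribe and process the mitochondrial genome or its RNA were read in the same test. Of 23 such genes listed, 22 had a row and 19 were tested. The test passed 1 of the 19 as higher in the GAF knockdown and 0 as lower by edgeR, beside 2 with an unadjusted p under 0.05, and DESeq2 also called 1 higher and 0 lower. Over all genes tested 3.40% were called higher and 6.06% lower, so these counts are near the background and show nothing particular to the list. The median log2 fold change was 0.06, with a range from -1.48 to 0.51. The gene called was *Top3alpha*, a topoisomerase of the nucleus and of mitochondria, with 152, 135, 95.6 and 106 CPM, the GAF knockdown libraries above the others (log2 fold change 0.51, standard error 0.142, adjusted p = 0.0701, edgeR). It was not called without GAF knockdown replicate 2 (adjusted p = 0.588, edgeR) or without replicate 3 (0.251).

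*PolrMT*, the mitochondrial RNA polymerase, had 153, 147, 138 and 126 CPM, with the GAF knockdown libraries just above the others (log2 fold change 0.18, standard error 0.130, not past the threshold in edgeR). *TFAM*, which packages mitochondrial DNA and helps start transcription, had 65.4, 45.6, 46.2 and 54.2 CPM, and its groups overlapped (0.14, adjusted p = 0.806, edgeR). *mtTFB2*, the other initiation factor, had 18.8, 21.7, 12.4 and 25.3 CPM, also overlapping (0.10, adjusted p = 0.923, edgeR). *Lon*, a protease of the mitochondrial matrix that degrades TFAM, had 320, 346, 342 and 413 CPM. Its log2 fold change was -0.18 (adjusted p = 0.423, edgeR), and -0.31 without Mi-2 knockdown replicate 1.

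*PNPase*, an exoribonuclease of mitochondria, was the other gene with an unadjusted p under 0.05. It had 22.7, 31.6, 53.2 and 35.02 CPM, higher in both Mi-2 knockdown libraries, with a log2 fold change of -0.68 that did not pass the adjusted test (adjusted p = 0.201, edgeR). *PNPase* and *SLIRP2*, which gave the lowest value of the list on 0, 19, 9 and 13 counts, fall outside the rule for named genes and were chosen after their values were seen. *mtTFB1*, *SLIRP1* and *PolG2* lie wholly under other genes of the same strand and had 0 counts, which the counting itself can give, and *bsf* was not analysed here.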

How the data were processed

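The neuRNA-seq libraries of GAF knockdown replicates 2 and 3 and Mi-2 knockdown replicates 1 and 2 were analysed. The values are raw counts per gene that the authors deposited, without normalization or pooling. Per the study's methods and processing notes, reads were trimmed with cutadapt 1.10, mapped with HISAT2 2.0.4 to dm6 with the mitochondrial genome included, and counted with featureCounts 1.5.0-p3 on the sense strand of whole FlyBase genes. The table has 6 further columns, headed as mock treatment and Dcr-2 knockdown, whose names match no sample label and which were not used, and an identical copy of the table was not used. GAF knockdown replicate 1 and the other samples of the 20 were not analysed here.

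Gene names, strands and positions came from the Ensembl release 115 annotation of dm6, which matched 17464 of 17659 identifiers. The authors counted on an earlier annotation, so the overlaps given may differ from theirs. Low counts were removed with filterByExpr and libraries scaled by TMM (factors 0.976 to 1.01). All 7826 remaining genes entered edgeR's quasi-likelihood test (edgeR 4.0.16, R 4.3.3) with Benjamini-Hochberg adjustment, and a call needed an adjusted p under 0.1, as in the study. A negative log2 fold change means lower in the GAF knockdown. DESeq2 1.42.0 was an alternative, as were other scalings, no filter, a threshold of 0.05 and leaving out each library. Shares have Wilson 95% intervals and two-sided exact permutation tests (SciPy 1.17.1), which cannot give a p under 0.333 here. A count of 0 allows 3 counts, or 0.239 to 0.756 CPM by library. The fits were first tested on simulated data.

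Every gene of the mitochondrial genome was accounted for, protein and rRNA genes singly, and tRNA genes by name where they had at least 10 counts in every library or were the highest. Of the nuclear genes, called ones and *PolrMT*, *TFAM*, *mtTFB2*, *bsf* and *Lon* were to be named. The members and lists were chosen with earlier results of these data known, and the lists of nuclear rRNA, ribosomal protein and small RNA genes after the counts had been seen.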

Additional observations from a re-analysis of the deposited data

How the results depend on the processing

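Between 6 and 9 mitochondrial genes were called lower in the GAF knockdown and 0 higher under every alternative run for these counts, while scaling to the mitochondrial total left 0 called (lowest adjusted p 0.484, edgeR). DESeq2 called 6, and with no filter on low counts 9 were called, *mt:ATPase6* (adjusted p = 5.86e-17, edgeR) and *mt:ND4* (5.12e-07) being added although their groups overlap. Leaving out single libraries gave medians of the log2 fold changes from -1.59 to -1.004 and log2 ratios of the share from -1.53 to -0.95. Plus-strand differences then ran from -1.86 to -0.05 points. In the edgeR fits of this kind the library left alone in its group was assumed to vary like the other group. Calls from those fits are therefore not read as support. Other scalings kept the median between -1.33 and -1.26, and scaling to the mitochondrial total turned it to 0.0173, which that scaling does by construction. With any library left out, 10 of the 11 genes tested kept a negative log2 fold change, the exception being *mt:ND4* (-1.94 to 0.35). Among the nuclear genes the calls higher in the GAF knockdown were 0 at an adjusted p under 0.05 and 0 to 1 with single libraries left out, and those lower were 0 to 1. *TFAM* (-0.14 to 0.37) and *mtTFB2* (-0.31 to 0.73) changed sign with single libraries left out, and the cause was not tested. No paired analysis was possible because the GAF knockdown replicates 2 and 3 and the Mi-2 knockdown replicates 1 and 2 share only 1 number. Low counts, under 50 in any library, limit what can be said of *mt:ND2*, *mt:srRNA*, the 4 untested protein genes and all tRNA genes.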
